A study of Mus musculus with 6 samples.

Results

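Genes that bring circulating fatty acids into adipocytes and prepare them for use were examined in subcutaneous fat of mitoNEET transgenic and wild type mice. The set comprised 10 genes, given by name for their roles: lipoprotein lipase (Lpl) and its partners Gpihbp1, Angptl4 and Vldlr, the transport genes Fabp5, Slc27a1 and Slc27a4, the acyl-CoA synthetase genes Acsl1 and Acsl5, and the glycerol channel gene Aqp7. Array probes were assigned through the platform's gene symbols, and each gene was represented by its probe of highest mean over the 6 arrays. For 9 of the 10 genes, 24 probes were found, of which 21 passed the filter on dim probes, an intensity above 55.4 on at least 3 of 6 arrays. All 9 representative probes exceeded it on every array. Acsl1 was not analysed here. The 9 genes stand beside 15080 features in all that passed the filter on dim probes.

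Expression was measured on 6 Illumina bead arrays, 3 of wild type and 3 of mitoNEET transgenic mice (here WT and TG, numbered as in the sample titles). All mice were FVB males aged 12 weeks. Under isoflurane in the light phase, their subcutaneous fat was taken and frozen. The Cisd1 gene encodes mitoNEET, which sits in the outer membrane of mitochondria and holds an iron-sulfur cluster. The short descriptions of both groups carry the prefix aP2, another name of Fabp4, whose promoter is widely used to drive transgenes in adipocytes, but the labels do not say which promoter drives this transgene. They also do not say whether each array came from a separate mouse, so the p-values describe scatter between samples that may be technical.

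White adipocytes take up most of their fatty acids from triglyceride carried in chylomicrons and very low density lipoproteins. Lipoprotein lipase, made by adipocytes and carried to the capillary lumen by GPIHBP1, releases the fatty acids, and ANGPTL4 inactivates it. Fatty acids that enter the cell are bound by carrier proteins and trapped as acyl-CoA by synthetases, while AQP7 lets glycerol cross the adipocyte membrane.

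Opposite changes passed the test within the set: Aqp7 and Fabp5 were higher in transgenic fat, by 1.51-fold and 1.49-fold, and Acsl5 was lower, by 1.40-fold. Gpihbp1 had the widest difference, 2.14-fold, with a spread among wild type arrays that kept it outside the threshold. Lpl, Angptl4 and Vldlr differed by 1.01-fold, 1.02-fold and 1.02-fold, within their spread, and Slc27a1 and Slc27a4 lay 1.24-fold and 1.19-fold higher without passing. Thus 2 of 9 genes rose, 1 fell and 6 did not pass in limma's moderated test at an adjusted p of 0.05 over all features. Over all 15080 features 5.01% were called higher and 8.2% lower, 13.2% in either direction. The set was chosen with earlier results of these data known, so setting its counts beside these shares does not test it. The median log2 difference, transgenic minus wild type, was 0.25 for the 9 genes and 0.025 for all features. The groups did not overlap in 5 of the 9 genes, 4 higher and 1 lower, and in 35.7% of all features, 18.4% higher and 17.3% lower. With limma refitted without WT array 2, TG array 1, TG array 2 or TG array 3, 0 of the 9 genes passed (4, 5, 5 and 4 had an unadjusted p under 0.05), beside 317, 501, 0 and 1197 of all features.

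**Figure D1:**
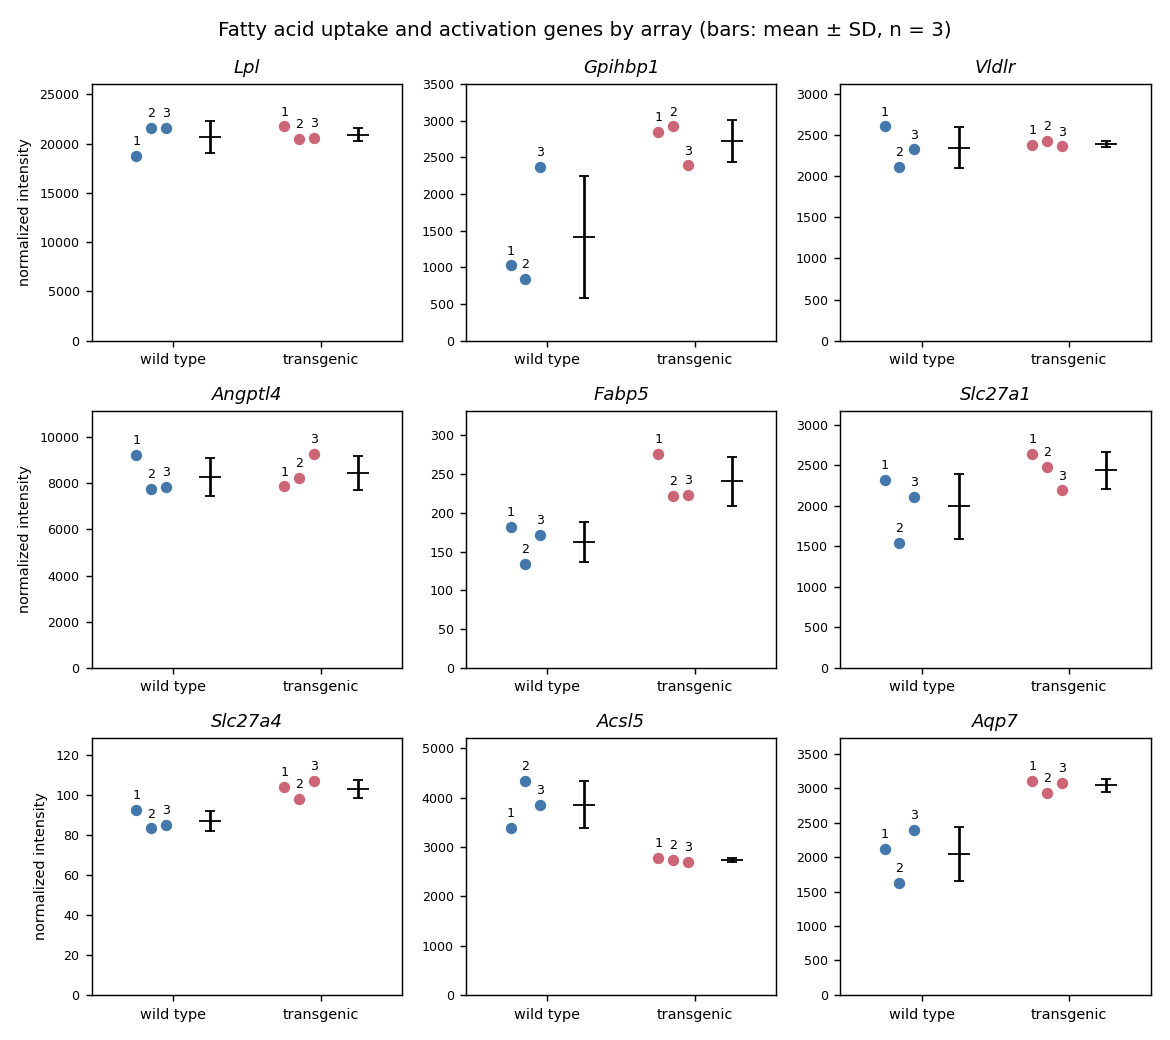
Normalized intensity (linear axis from 0) of the 9 genes on each array, with WT arrays in blue and TG arrays in red, the array number above each point, and the mean ± SD of 3 arrays beside them. Aqp7, Fabp5 and Slc27a4 lie higher on every TG array, Acsl5 lies lower on every TG array, and WT array 3 of Gpihbp1, at 2364, lies just below the lowest TG array, at 2390.

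All values below are the deposited intensities, which are normalized to a common distribution and were taken to still contain a background level near 47.8. For dim probes such a background would make the fold smaller than it would be without it. Marker lists of the cell types in this tissue differed between the groups and are given here because several of the genes are made by particular cells. All 10 measured markers of mature adipocytes passed the filter, and their summed intensity ran from 62354 to 77227 on WT arrays and from 82752 to 85846 on TG arrays. Of these 10, 5 were higher, Pparg, Slc2a4 and Lep having the smallest p-values. The brightest markers, Pnpla2, Plin4 and Adipoq, were not called yet make up most of the sum. Pnpla2 read 25166, the highest value of the data, on WT array 1 and on every TG array. Of 14 endothelial genes 2 were higher, Cdh5 and Sox17, and the sum ran from 10141 to 15552 against 15445 to 15750. All 11 tested T, NK and B cell genes were lower (sums of 6749 to 12365 against 958 to 3548, smallest p for Blk, Cd22 and Zap70), with Cd8a and Cd5 not past the filter. Cd4 read under 55.4 on TG arrays 1 and 2, and Blk, Cd22 and Ms4a1 on TG array 1, so these genes needed wild type arrays to pass the filter. Also lower were 3 of 6 brown adipocyte genes, Ucp1, Cpt1b and Cox7a1 (41066 to 44345 against 32576 to 38882), with Dio2 not past the filter. The rest were not called: Elovl3 and Cox8b differed by log2 -0.30 and -0.23, and Cidea went the other way, by 0.26. Macrophage sums overlapped (2140 to 2614 against 2602 to 2919), with 0 of 7 genes called and Itgam not past the filter. Skeletal muscle genes, 0 of 11 called and Myh4 not past the filter, summed to 23554 on WT array 2 and to between 834 and 2016 on the other 5 arrays. Keratinocyte sums were 402 to 423 against 443 to 697, with Trp63 called higher and Krt5, Krt1 and Sfn not past the filter. In whole tissue, fewer cells of a type and less RNA per cell cannot be told apart.

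WT array 2 also stood apart within the uptake genes: it was the lowest of the 6 arrays for 7 of the 9 genes and the highest for Acsl5, whereas it was the lowest for 26.2% of all features. The part of muscle or lymphocyte RNA in these readings was not tested. On the log2 scale the SD among TG arrays was smaller than among WT arrays in all 9 genes, and in 58.3% of all features.

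**Figure D2:**
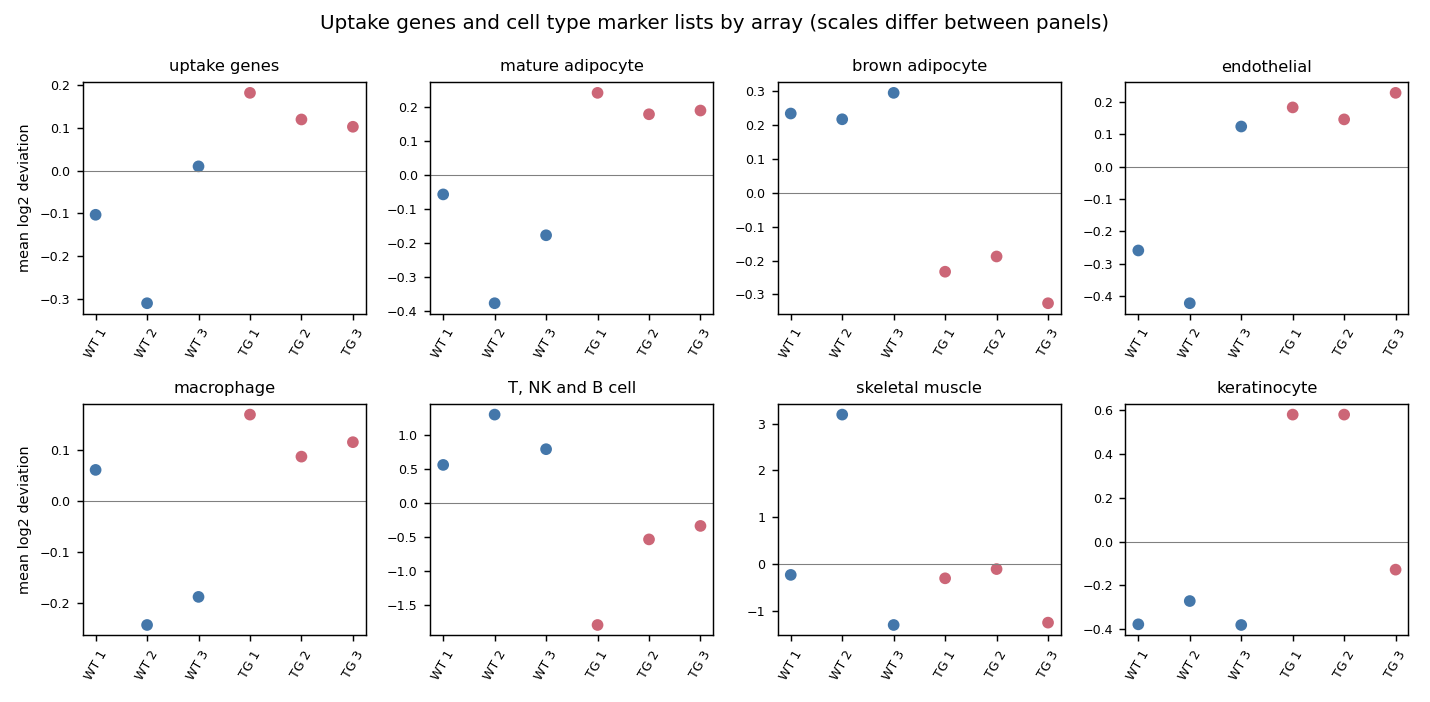
Mean log2 deviation from the 6-array mean (y axis) on each array (x axis) for the 9 uptake genes and 7 marker lists, with WT arrays in blue and TG arrays in red; the scales differ between panels. The muscle panel shows WT array 2 at 3.19, the lymphocyte panel shows all TG arrays below all WT arrays, and the endothelial panel shows WT array 3 at 0.12, next to the TG arrays.

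The first group acts at the capillary wall. Lpl was among the brightest probes of the array, ranking between 11 and 41 of 45281 probes. It read 18767, 21617 and 21617 on WT arrays 1 to 3 and 21748, 20484 and 20559 on TG arrays 1 to 3. The groups overlapped, WT array 1 being the lowest reading and TG array 1 the highest. The log2 difference was 0.021 (SE 0.090, 95% interval -0.19 to 0.23, limma adjusted p = 0.901). Normalization to a common distribution sets values by rank, as the equal readings of WT arrays 2 and 3 show, so a change at the top of the range has little room to appear. A second, dim Lpl probe, with a mean of 132, differed by 0.22 (adjusted p = 0.345 with probes tested separately).

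Gpihbp1, the endothelial protein that carries and anchors lipoprotein lipase, gave the widest difference of the set. Its representative probe read 1025, 840 and 2364 on WT arrays 1 to 3, and 2841, 2921 and 2390 on TG arrays 1 to 3. Every TG array was above every WT array, but WT array 3 came close to TG array 3 while WT arrays 1 and 2 were far below. Group means were 1410 ± 832 (SD, n = 3) and 2717 ± 286 (SD, n = 3), a log2 difference of 1.09 (SE 0.33, 95% interval 0.35 to 1.84) with a limma adjusted p of 0.0607. The exact permutation p (two-sided) was 0.1, and no smaller value is possible with 3 arrays against 3. Without WT array 3 the log2 difference was 1.54 (SE 0.13) and the limma adjusted p was 0.00433; without WT array 2 it was 0.80.

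The other Gpihbp1 probe followed the same order of arrays within the wild type group. It read 957, 866 and 1628 on WT arrays and 2237, 2013 and 1725 on TG arrays, a log2 difference of 0.84 that passed when probes were tested separately (SE 0.22, limma adjusted p = 0.0372; 0.0543 for the representative probe in that fit). WT array 3 thus had the highest wild type reading with both probes, and the endothelial marker list showed the same array apart, with a mean log2 deviation of 0.12 against -0.26 and -0.42 on WT arrays 1 and 2 and 0.15 to 0.23 on TG arrays. The part of endothelial content in the Gpihbp1 difference was not tested.

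Angptl4, the secreted inhibitor of lipoprotein lipase, read 9227, 7749 and 7836 on WT arrays and 7868, 8246 and 9289 on TG arrays. The ranges almost coincided, with WT array 1 and TG array 3 highest. The log2 difference was 0.035 (SE 0.11, 95% interval -0.21 to 0.28, limma adjusted p = 0.856). The other Angptl4 probe read near background, with a mean of 59.5, and differed by -0.12.

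Vldlr encodes the very low density lipoprotein receptor, which binds lipoproteins rich in triglyceride and helps lipoprotein lipase act on them. Its representative probe read 2609, 2112 and 2329 on WT arrays and 2386, 2430 and 2367 on TG arrays, with a log2 difference of 0.032 (SE 0.096, 95% interval -0.19 to 0.25, limma adjusted p = 0.856). The TG arrays fell inside the wild type range. The gene had 6 probes, and the others did not all point the same way: those with means of 2276 and 2041 differed by -0.043 and -0.14, and those with means of 137 and 137 by 0.31 and 0.42. None passed when probes were tested separately (adjusted p between 0.0582 and 0.861), and a probe that did not pass the filter was not tested. Which transcripts each probe reads was not analysed here.

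**Figure D3:**
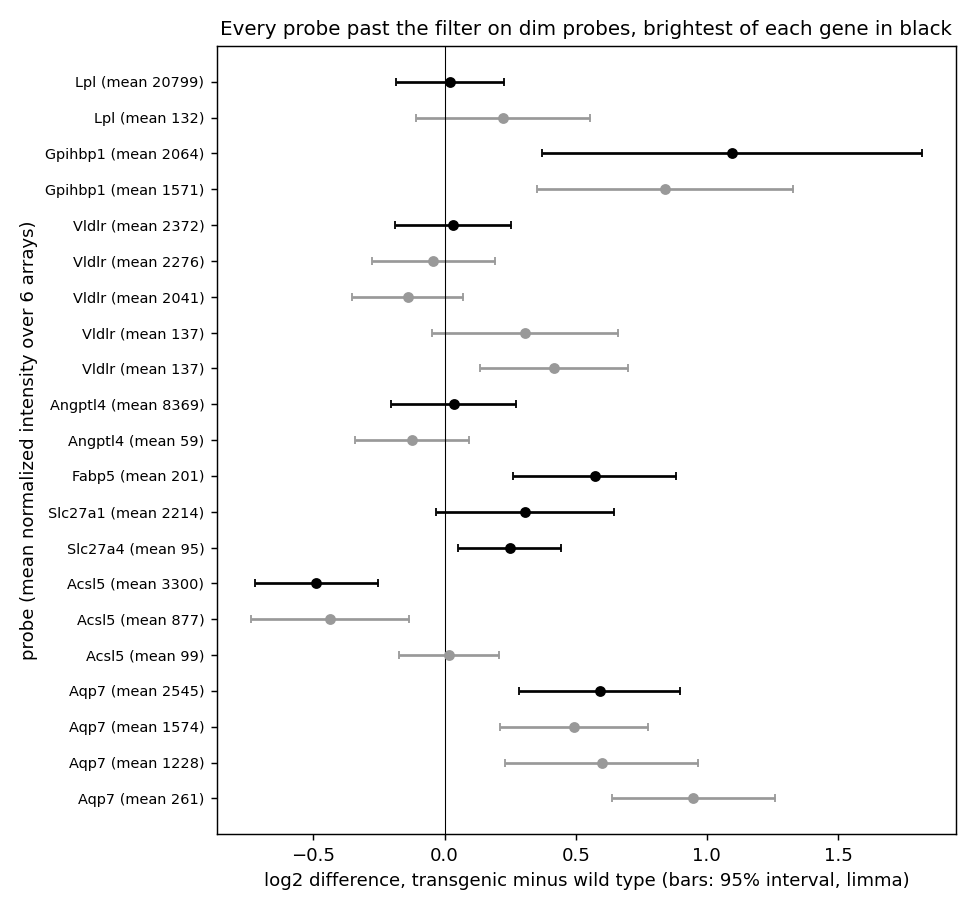
Log2 difference, transgenic minus wild type (x axis), with its 95% interval from limma when probes were tested separately, for the 21 probes past the filter (y axis, mean intensity in brackets); the representative probe of each gene is black and the others grey. All 4 Aqp7 probes and both Gpihbp1 probes lie to the right of 0, the brighter pair of Acsl5 probes lies to the left while the dim Acsl5 probe is at 0.017, and Vldlr probes lie on both sides.

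Within each array, the log2 level of a gene was also taken relative to that of a partner. The difference Gpihbp1 minus Lpl was -4.02 ± 0.76 (SD, n = 3) on WT arrays and -2.95 ± 0.15 (SD, n = 3) on TG arrays, a shift of 1.07 without overlap between groups (two-sided exact permutation p = 0.1, 0.3 after adjustment over 3 such differences). The difference Angptl4 minus Lpl shifted by 0.014 (exact permutation p = 0.9, adjusted 0.9). Since the Lpl probe lies near the top of the range and hardly varied, these shifts mostly restate those of Gpihbp1 and Angptl4 and do not show whether Lpl changed unequally with them. The smallest p the design allows is 0.1, and the level of a probe cannot be compared with that of another.

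The next group carries fatty acids across the membrane and through the cytosol. Slc27a1 encodes FATP1, a fatty acid transport protein of muscle and fat that also has acyl-CoA synthetase activity. It read 2320, 1546 and 2109 on WT arrays and 2644, 2477 and 2190 on TG arrays, so that WT array 1 lay above TG array 3 and the groups overlapped. The log2 difference was 0.31 (SE 0.15, 95% interval -0.041 to 0.66, limma adjusted p = 0.208), and without WT array 2 it was 0.13.

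Slc27a4 encodes the related protein FATP4 and was read by a dim probe about 1.99 times the background level. Values were 92.3, 83.2 and 84.7 on WT arrays and 104, 98.0 and 107 on TG arrays, without overlap. The log2 difference of 0.25 did not pass (SE 0.085, 95% interval 0.054 to 0.44, unadjusted p = 0.0182 and adjusted p = 0.0877 in limma), and with the background level subtracted it was 0.51. The within-array difference Slc27a1 minus Slc27a4 shifted by 0.059 between groups (exact permutation p = 0.5, adjusted 0.75), and by -0.19 with the background subtracted. With 1 array left out the shift ran from -0.084 without WT array 2, through 0.0060 and 0.0098 without TG arrays 1 and 2 and 0.13 and 0.13 without WT arrays 1 and 3, to 0.16 without TG array 3, so its direction was not settled.

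Fabp5, the epidermal fatty acid binding protein gene, which adipocytes, macrophages, endothelial cells and keratinocytes express, read 182, 134 and 171 on WT arrays and 276, 222 and 223 on TG arrays. All TG arrays were above all WT arrays, TG array 1 being the highest of the 6. Means were 162 ± 25.2 (SD, n = 3) and 240 ± 31.2 (SD, n = 3), a log2 difference of 0.57 (SE 0.14, limma adjusted p = 0.0346). The call was lost without WT array 2 (log2 0.44, adjusted p = 0.103), TG array 1 (0.47, 0.104), TG array 2 (0.63, 0.0843) or TG array 3 (0.62, 0.0577). The sum of keratinocyte markers was 697, 695 and 443 on TG arrays 1 to 3 and 402 to 423 on WT arrays. Of its 3 tested genes, Trp63 was higher on every TG array, and Krt14 and Krt10 overlapped between the groups. Mean log2 deviations of the mature adipocyte, endothelial and macrophage lists were also higher on every TG array than on any WT array. The part of any of these lists in the Fabp5 difference was not tested. The other Fabp5 probe did not pass the filter.

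Activation to acyl-CoA was represented in the set by Acsl5 alone, since Acsl1 was not analysed here. Acsl5 is a long-chain acyl-CoA synthetase gene whose protein lies at mitochondria and the endoplasmic reticulum. Outside the set, Acsl3, Acsl4 and Acsl6 differed by log2 0.21, 0.011 and -0.066 without passing, Acsl6 reading near background. Acsl5 was the gene of the set that fell. Its representative probe read 3394, 4343 and 3849 on WT arrays and 2785, 2741 and 2690 on TG arrays. The TG arrays lay close together and all below the lowest WT array, while WT array 2 was the highest. Means were 3862 ± 475 (SD, n = 3) and 2739 ± 47.6 (SD, n = 3), a log2 difference of -0.49 (SE 0.10, limma adjusted p = 0.0232).

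A second Acsl5 probe read 907, 1255 and 882 on WT arrays and 752, 737 and 730 on TG arrays, again lower on every TG array (log2 -0.44, adjusted p = 0.0618 with probes tested separately). Another, dim probe with a mean of 99.0 read 94.0 to 102 on WT arrays and 96.2 to 105 on TG arrays (log2 0.017), and averaging the probes ended the call (log2 -0.30, adjusted p = 0.0678). The call of the representative probe was lost without WT array 2 (log2 -0.40, limma adjusted p = 0.0776), TG array 1 (-0.50, 0.0661), TG array 2 (-0.49, 0.0828) or TG array 3 (-0.48, 0.0573). Lymphocyte markers and 3 of 6 brown adipocyte markers were lower on the same arrays, as given above, and their part in the Acsl5 fall was not tested.

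Aqp7, the aquaglyceroporin gene through which adipocytes release glycerol, was the clearest rise. Its representative probe read 2119, 1622 and 2398 on WT arrays and 3112, 2937 and 3082 on TG arrays. All TG arrays were above all WT arrays and lay closer together. Means were 2046 ± 393 (SD, n = 3) and 3044 ± 93.5 (SD, n = 3), a log2 difference of 0.59 (SE 0.14, limma adjusted p = 0.0301).

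All 4 Aqp7 probes were higher on every TG array, and all 4 passed when probes were tested separately. The probe with a mean of 261 read 177, 144 and 218 on WT arrays and 342, 344 and 341 on TG arrays, a log2 difference of 0.95 (adjusted p = 0.0124), and the probes with means of 1574 and 1228 differed by 0.49 and 0.60 (adjusted p = 0.0355 and 0.0434). For the representative probe the call was lost without WT array 2 (log2 0.43, limma adjusted p = 0.0698), TG array 1 (0.58, 0.0903), TG array 2 (0.62, 0.0884) or TG array 3 (0.58, 0.0733). Mature adipocyte markers were also higher, with a median log2 difference of 0.41 over 10 genes, and their part in the Aqp7 rise was not tested.

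Without TG array 2, 0 of all 15080 features passed in limma, 3640 had an unadjusted p under 0.05, and 5 of the 9 genes did. With the background level subtracted 17 features and 0 of the 9 genes passed, 5 of the 9 having an unadjusted p under 0.05, while the log2 differences of Fabp5, Aqp7 and Acsl5 were 0.76, 0.60 and -0.50.

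**Figure D4:**
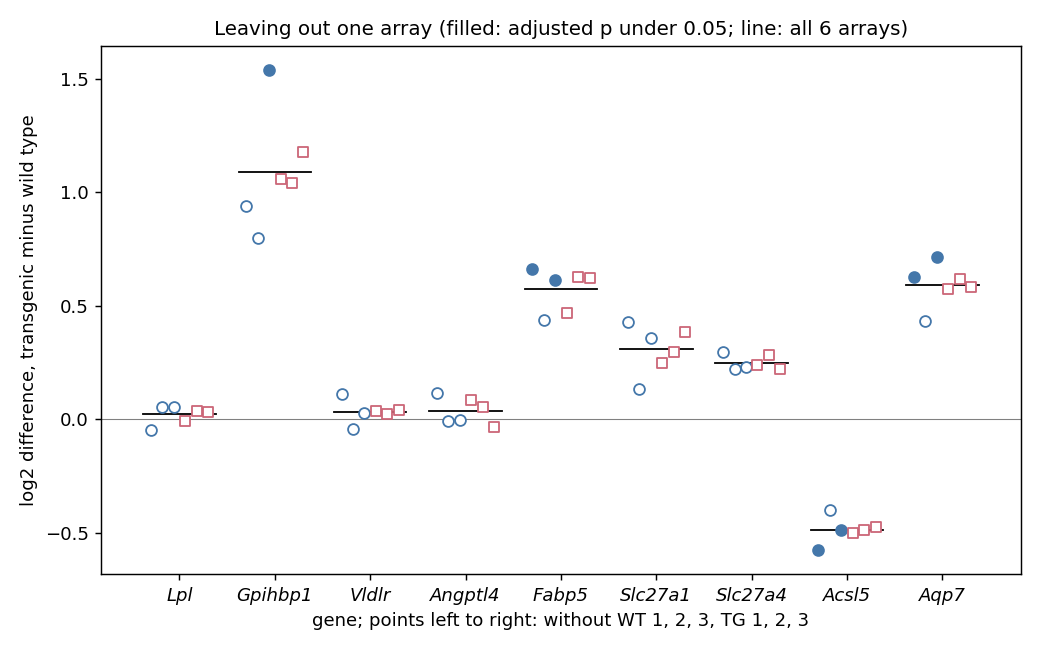
Log2 difference, transgenic minus wild type (y axis), of each gene (x axis) when 1 array was left out, in the order WT 1, 2, 3 (blue circles) and TG 1, 2, 3 (red squares); filled points had a limma adjusted p under 0.05 and the line is the value from all 6 arrays. Aqp7, Fabp5 and Acsl5 keep their sign in every fit but are called in 2 of 6, and Gpihbp1 is called without WT array 3, at 1.54.

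Promoter windows were available from RefSeq (GRCm38.p6) for 6 of the 10 genes, 11 windows in all. Each holds 250 bases before and 50 after a transcription start. They are described because Pparg, whose protein binds direct repeats of AGGTCA-like elements in genes of lipid uptake, was among the adipocyte markers that rose, from 3807 ± 503 (SD, n = 3) to 5878 ± 207 (SD, n = 3). A window of the gene with the clearest rise, Aqp7, and the window of the gene that fell, Acsl5, are printed 5′ to 3′ along the gene's strand, with matches to AGGTCA on either strand in capitals. Of the pair of overlapping Aqp7 windows, the downstream one, which holds more matches, is shown.

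Aqp7, chr4:41047913-41048212, minus strand: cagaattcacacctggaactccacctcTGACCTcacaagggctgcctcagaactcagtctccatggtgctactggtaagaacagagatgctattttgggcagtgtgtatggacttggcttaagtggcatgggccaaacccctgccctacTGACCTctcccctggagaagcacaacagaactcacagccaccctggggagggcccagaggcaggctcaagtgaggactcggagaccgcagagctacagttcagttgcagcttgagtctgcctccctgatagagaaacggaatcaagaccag
Acsl5, chr19:55253119-55253418, plus strand: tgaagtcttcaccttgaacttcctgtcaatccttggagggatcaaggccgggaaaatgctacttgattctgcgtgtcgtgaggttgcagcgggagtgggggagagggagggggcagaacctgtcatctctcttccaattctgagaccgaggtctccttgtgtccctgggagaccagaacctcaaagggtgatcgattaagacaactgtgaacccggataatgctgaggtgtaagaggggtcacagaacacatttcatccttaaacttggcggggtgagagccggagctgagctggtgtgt

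A direct repeat of AGGNCA with 1 base between its copies, searched on both strands, was in none of the 11 windows and in 0.381% of 32851 windows of all genes. The single element AGGTCA, chosen after the sequences were seen, was in the printed Aqp7 window at bases 28 and 150, read as TGACCT. In the other Aqp7 window, chr4:41048087-41048386, it was at base 202, which is the first of these sites again. It was in 16.3% of all windows. It was not in the windows of Acsl5, Acsl1, Slc27a1, Slc27a4 or Vldlr. These are matches of letters, and binding was not measured here. The printed windows were picked by the direction of their genes and, for Aqp7, by matches, so their contrast is not a test. A role of Pparg in these differences was not tested.

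Beyond the 10 genes, a list of 58 others that act in lipoprotein handling, uptake, binding and activation was read from the same fit. Of 44 that were tested, 6 rose, 6 fell and 32 did not pass, 27.3% called beside 13.2% of all features, with a median log2 difference of 0.036. The list was chosen with earlier results of these data known, so its share does not show a trait of the pathway. In limma without WT array 2, 2 rose and 5 fell, without TG array 1, 3 rose and 5 fell, and without TG array 2, 0 passed and 16 had an unadjusted p under 0.05. Caveolin genes were among the rises: Cav1, the structural protein of caveolae, which are abundant in adipocytes and endothelium, went from 7694, 7151 and 8329 on WT arrays to 11498, 11270 and 11295 on TG arrays (log2 0.56, SE 0.087, limma adjusted p = 0.0148). Its partner Cav2 rose 1.93-fold, from 1177, 1137 and 1886 on WT arrays to 2469, 2914 and 2516 on TG arrays. The lipoprotein genes Apoe and Pltp, the latter a phospholipid transfer protein gene, rose by 0.68 and 0.50 on the log2 scale. Apoe read 4111, 4360 and 6075 on WT arrays and 7220, 7525 and 8274 on TG arrays. Mean log2 deviations of the mature adipocyte and endothelial lists were also higher on every TG array, and the part of these cells in the rises was not tested.

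The medium-chain acyl-CoA synthetase gene Acsm5 and the channel gene Aqp11 rose 1.53-fold and 1.38-fold. Fabp3, the heart-type fatty acid binding protein gene, fell furthest: it read 4412, 4485 and 1916 on WT arrays and 733, 814 and 966 on TG arrays (log2 -2.01, SE 0.30, limma adjusted p = 0.0148). WT array 3 was well below the other WT arrays yet above every TG array. Fabp3 and Fabp5, of the same binding protein family, thus differed in opposite directions.

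The other falls were Got2, the mitochondrial aspartate aminotransferase gene whose product is also found at the plasma membrane as a fatty acid binding protein (1.74-fold), Acss1, a mitochondrial acetyl-CoA synthetase gene (1.61-fold), Acot11, a thioesterase gene (1.97-fold), Sorl1, a sorting receptor gene of the LDL receptor family (2.91-fold), and Lrp8, a lipoprotein receptor gene. Lrp8 read 67.4, 73.4 and 78.5 on WT arrays and 53.9, 60.2 and 52.5 on TG arrays, with 2 of 3 TG readings under 55.4, so it passed the filter through the wild type group, and with the filter required on all 6 arrays 5 genes were lower. Cd36, the fatty acid translocase gene, read between 48.4 and 62.3 and did not pass the filter, and Fabp4, the main adipocyte binding protein gene, read between 59.4 and 75.2 (log2 0.11, limma adjusted p = 0.537). Both genes are known to be abundant in fat, so their probes are not a usable measure here. Across the 6 fits without 1 array, Cav1, Acsm5, Fabp3, Got2, Acss1, Acot11 and Sorl1 missed the threshold in 1, without TG array 2, where 0 features passed, Cav2 and Aqp11 in 3, Apoe and Pltp in 4 and Lrp8 in 5. As given above, 3 of 6 brown adipocyte markers and all 11 tested T, NK and B cell genes were also lower in the transgenic group. Their part in the falls of Fabp3, Got2, Acss1, Acot11 and Sorl1 was not tested.

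**Figure D5:**
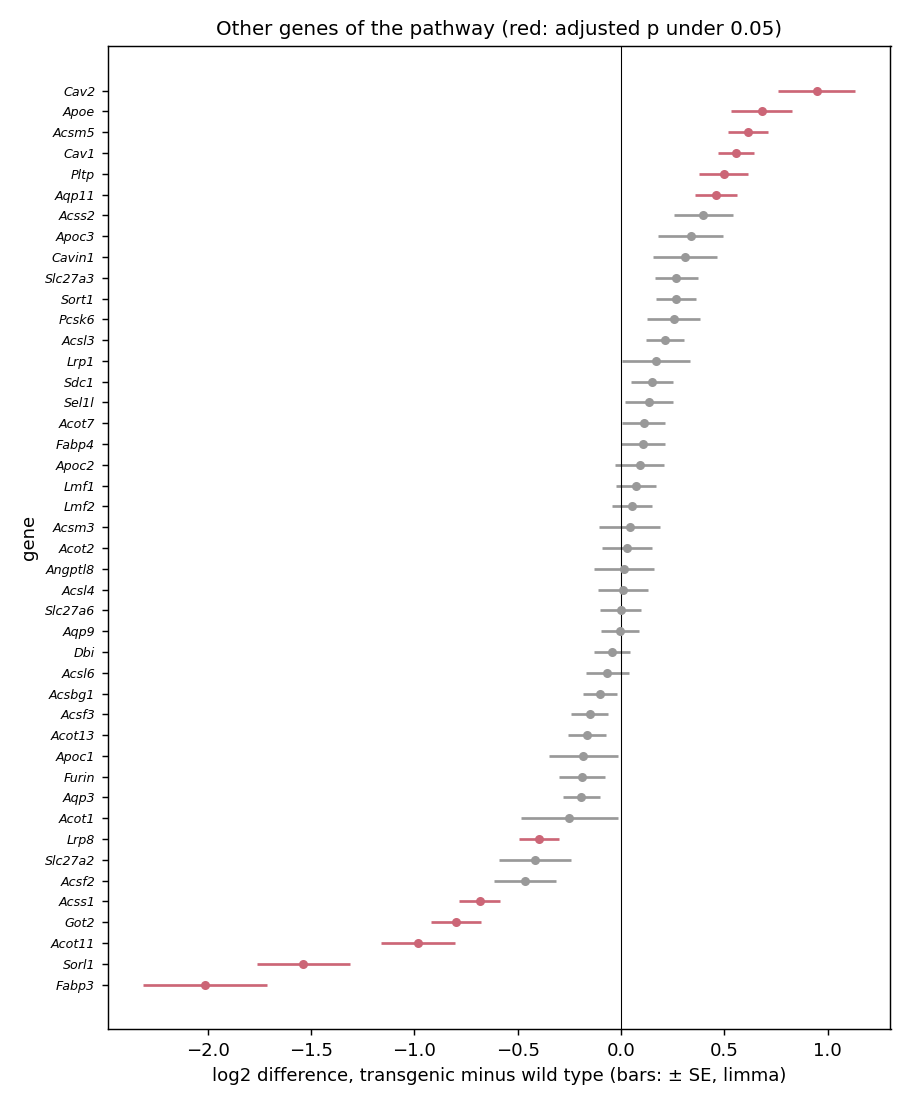
Log2 difference, transgenic minus wild type (x axis, bars ± SE from limma), of the 44 tested genes of the wider pathway (y axis), with those at an adjusted p under 0.05 in red. The 6 called rises run from 0.46 for Aqp11 to 0.95 for Cav2, and the 6 called falls from -0.40 for Lrp8 to -2.01 for Fabp3.

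The transgene's product was a weak check of the labels. The Cisd1 probe read 1035, 773 and 937 on WT arrays and 1090.5, 1106 and 1060 on TG arrays, without overlap (log2 0.26, SE 0.11, limma adjusted p = 0.164), and it is not known here if the probe can bind the transgene's transcript.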

How the data were processed

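Biotin-labelled cRNA of 6 samples was hybridised to Illumina bead arrays, per the labels' protocols. The deposited table, made by the authors, holds 1 intensity per probe and sample, not on a log scale, and no source used here names the software. Its columns share nearly the same sorted values (largest gap 0.157), as quantile normalization leaves them. Its lowest value of 32.4 was taken to mean that no background had been subtracted, though a correction that keeps values positive could not be told apart. A scanner table with 24 columns of per-array values named by chip and position was not used, because these names match no sample's label.

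Log2 intensities were tested with limma 3.58.1 in R 4.3.3 (lmFit, eBayes), transgenic minus wild type, without covariates, with Benjamini-Hochberg adjustment over 15080 features. Probes above 55.4, the mode of all log2 values plus 1.6 times the spread below it, on at least 3 of 6 arrays were kept (22218 of 45281). A gene was represented by its brightest kept probe; 3531 features had no single gene listed. Of the probes with 1 gene, 34807 matched a gene table of GRCm38.p6 by Entrez identifier. The fit was tested on simulated data with known changes. A marker list's sum is over tested members.

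The members and lists were chosen with earlier results of these data known. Named genes were the 10 members, Cisd1, pathway genes past the threshold with Cd36, Fabp4 and Cav1, and up to 3 genes of smallest p from each marker list. Acsl3, Acsl4, Acsl6 and some further markers are named as limits. Alternatives covered an offset, background subtraction, the filter, the choice of probe, centring, array weights, moderation of the variance, the threshold, a block for the replicate number, and left-out arrays. The planned difference Acsl1 minus Acsl5 was not computed, since Acsl1 was not analysed here. Same-numbered arrays had deviations from the group means correlated at 0.41, 0.22 and -0.023, and unlike-numbered arrays at -0.35 to 0.23. These values do not settle whether the numbers pair the arrays. They were not taken to do so, and a fit with a replicate block is given below.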

Additional observations from a re-analysis of the deposited data

How the results depend on the processing

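Alternatives were run one at a time, 19 in all. Slc27a1 and Slc27a4 stayed higher and uncalled in each of the 17 that refit them, and Aqp7, Fabp5 and Acsl5 kept their direction. With the background level subtracted, 1 feature was higher and 16 lower in limma (4077 with an unadjusted p under 0.05), 0 members and 0 other pathway genes were called in either direction, Fabp5 was 0.76, Acsl5 -0.50 and Aqp7 0.60, and Slc27a1 minus Slc27a4 was -0.19. With every kept probe tested separately, 1260 of 22218 probes were higher, several probes of a gene being counted. With probes averaged 0 members were lower, Acsl5 was -0.30 and Angptl4 -0.045. Array weights gave 1246 higher features, Lpl at -0.0051 and Gpihbp1 at 1.14 (adjusted p = 0.0303). With a replicate block Gpihbp1 was 1.09 (adjusted p = 0.0483), the only member whose call changed, and 909 features were higher and 1460 lower. Centring arrays gave 1045 higher and 1092 lower against 756 and 1236, moving the median log2 difference of all features from 0.025 to 0.060. At an adjusted p of 0.01, 0 features, 0 members and 0 pathway genes passed (4722 features with an unadjusted p under 0.05); at 0.1, 1587 features and 4 members were higher. Without WT array 2 and TG array 1 together, 21 features were higher and 297 lower, 0 members were called, 0 pathway genes were higher and 3 lower, and Vldlr was -0.040, Fabp5 0.34, Acsl5 -0.41 and Aqp7 0.42. The cause of these shifts was not tested.

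With 1 array left out, higher features ranged from 0 to 992 and lower from 0 to 1306, members called higher from 0 to 3 and lower from 0 to 1, and pathway genes from 0 to 7 and from 0 to 6. The log2 difference ranged from -0.047 to 0.055 for Lpl, 0.80 to 1.54 for Gpihbp1, -0.042 to 0.11 for Vldlr, -0.034 to 0.12 for Angptl4, 0.44 to 0.66 for Fabp5, -0.58 to -0.40 for Acsl5 and 0.43 to 0.72 for Aqp7. The number of arrays limits all of these, and folds of dim probes (Slc27a4, Fabp5) would be understated by any background they retain.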
